A study of Caenorhabditis elegans with 6 samples.

Results

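The genes rbd-1 and daf-15 were examined because they hold the largest shares of small RNA reads in these libraries. They are 2 of the 22013 genes of the authors' transcript table, and their 8 transcripts are among 35862. The members were thus chosen by the size of their read share, which is given below as a description with no test. What the choice did not use is the genotype difference. The make-up of the reads by length and first base came from the same libraries.

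The study sequenced the small RNA of adult males, taken whole, of the nematode Caenorhabditis elegans to compare siRNAs on protein-coding genes with and without PRG-1, a Piwi-class Argonaute. There were 3 wild type libraries and 3 from a prg-1 null mutant (called the mutant from here on), whose removed part the labels do not describe. Males were picked as mid-L4 larvae, 20 to 30 for each library, raised apart at 25 °C and harvested 24 h later. RNA was treated with acid pyrophosphatase, so that RNAs with a 5′ triphosphate could be ligated. The labels do not say that the replicates were separate cultures, so p-values measure the spread between these samples, which may be technical.

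RBD-1 is an RNA-binding protein of the nucleolus needed to process small-subunit ribosomal RNA. DAF-15 is the worm's Raptor, the subunit of TOR complex 1 that binds its substrates, and its mutants arrest as dauer-like larvae. Small RNAs in this species fall into classes by length and first base. 22G-RNAs are secondary siRNAs, antisense to mRNAs and beginning with G. 21U-RNAs are the piRNAs bound by PRG-1, and 26G-RNAs are primary siRNAs of the germline. 22G-RNAs usually cover a target with many sequences, while a piRNA is a single sequence from its own locus.

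The libraries held 973971 to 2205341 genome-aligned reads. Antisense 22G reads on prg-1 itself came to 143, 441 and 88 in wild type and 7, 15 and 9 in the mutant (edgeR log2 fold change -5.10 ± 0.46 SE, adjusted p = 4.58e-09), and its few sense reads do not measure mRNA. All 13 sperm and male germline marker genes had a sense read, with 424 to 1759 such reads per wild type library and at most 406 per mutant library. Of 12 oocyte and hermaphrodite markers 11 had a sense read and vit-5 was at 0, with 5 to 18 reads in wild type and 3 to 8 in the mutant. Muscle, intestine and neuron markers gave 47 to 238, 0 to 19 and 1 to 12 reads per library. The sum of the sperm marker reads separated the genotypes, and the part of these reads in the results below was not tested. The sum need not hold for each sperm gene. In edgeR's fit of sense reads, msp-3 was lower in the mutant (log2 fold change -1.96, adjusted p = 0.0331). There fer-1 had the opposite sign (log2 fold change 1.96, adjusted p = 0.0792). Like those of prg-1, these sense reads were not taken as a measure of mRNA. With whole animals, fewer cells of a type and less RNA per cell cannot be told apart.

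rbd-1 (WBGene00004315) lies on the plus strand of chromosome IV, at 12724986 to 12730095 in the WBcel235 annotation. Its sense reads came to 147802, 174857 and 281238 in wild type libraries 1 to 3 and 231041, 219439 and 337188 in mutant libraries 1 to 3. As shares of genome-aligned reads these were 12.1%, 9.72% and 28.9% in wild type and 20.4%, 13.2% and 15.3% in the mutant. The third wild type library stood highest, and both other wild type libraries stood below every mutant library. The exact binomial 95% interval of the highest share ran from 28.8% to 29.0%, so counting error is far smaller than the spread between libraries. Among sense reads on transcripts alone, rbd-1 took 48.4% to 71.8% of each library.

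daf-15 (WBGene00000911) also lies on the plus strand of chromosome IV, at 9386208 to 9394979, and its reads were almost all antisense. They came to 41317, 52156 and 65682 in wild type and 53240, 54270 and 68547 in the mutant. The shares of genome-aligned reads were 3.37%, 2.90% and 6.74% in wild type and 4.70%, 3.26% and 3.11% in the mutant. Again the third wild type library was the highest, followed by the first mutant library. Together both genes held 15.4%, 12.6% and 35.6% of the genome-aligned reads of wild type and 25.1%, 16.4% and 18.4% of those of the mutant.

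**Figure D1:**
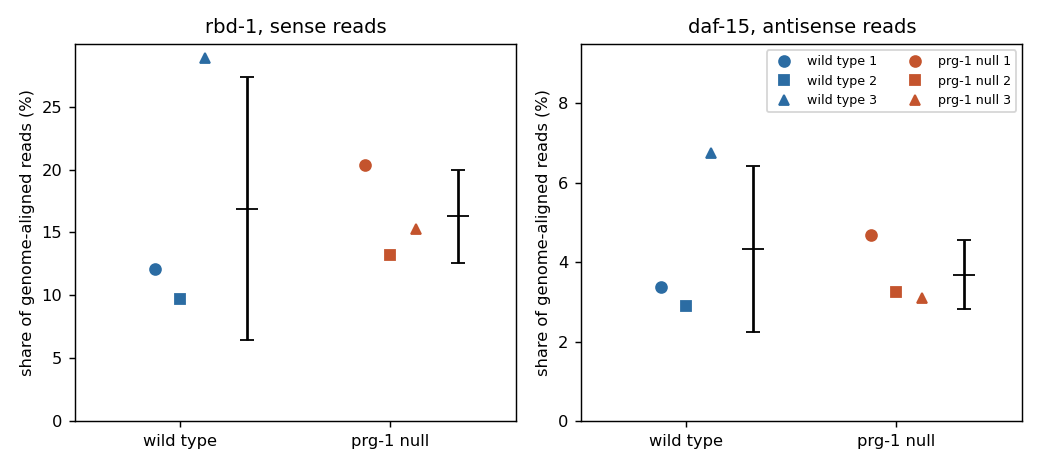
Share of genome-aligned reads (%) taken by rbd-1 sense reads (left) and daf-15 antisense reads (right). Each point is 1 library, blue for wild type and red for the prg-1 null mutant, and bars show mean ± SD of 3 libraries. The third wild type library is the highest point in both panels, at 28.9% and 6.74%.

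Neither share separated the genotypes. rbd-1 sense reads stood at 168808 ± 104531 (wild type) and 162798 ± 37017 (mutant) per 1000000 genome-aligned reads (SD, n = 3), with an exact two-sided permutation p of 1. daf-15 antisense reads stood at 43369 ± 20977 and 36872 ± 8763 per 1000000 (exact permutation p = 0.8). With 3 against 3 libraries this test cannot give less than 0.1, and over the 6 such tests made on both genes the lowest Benjamini-Hochberg adjusted exact p was 0.6. With all libraries the ratios of mutant to wild type were 0.964 and 0.850, or -0.052 and -0.234 on the log2 scale. Both directions turned without the third wild type library, to a log2 ratio of 0.58 for rbd-1 and 0.23 for daf-15. That of rbd-1 also turned without the second mutant library (0.08).

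Neither gene passed in the fits of sense or of antisense reads across all genes. In edgeR's fit of sense reads, 188 of 742 tested genes passed a Benjamini-Hochberg threshold of 0.05 (25.3%, with 11.9% higher and 13.5% lower in the mutant), and rbd-1, the only one of the pair with enough sense reads to test, did not (log2 fold change 0.17 ± 0.51 SE, adjusted p = 0.825). When the third wild type library was left out, rbd-1 just passed (log2 fold change 0.997, edgeR adjusted p = 0.0498). Without the second wild type library its log2 fold change was -0.09, and it was -0.19 when scaled to genome-aligned reads less those of both genes. The split of sense calls also moved: 62 genes in place of 100 were lower without the first wild type library, and 55 in place of 88 were higher with library-size scaling. In the fit of antisense reads, 1631 of 4889 genes passed (33.4%), 9.84% higher and 23.5% lower in the mutant, and neither member did. The log2 fold change of daf-15 was -0.86 ± 0.59 (edgeR adjusted p = 0.317). It was 0.17 when the third wild type library was left out.

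Each gene's reads were nearly all of a single length and first base. On rbd-1, sense reads of 21 nt starting with G came to 146911, 173745 and 279636 in wild type and 229742, 218139 and 335537 in the mutant, which is 99.4% to 99.5% of its sense reads. On daf-15, antisense reads of 20 nt with T as first base (U in RNA) came to 40981, 51532 and 65279 in wild type and 52901, 53891 and 68138 in the mutant, or 98.8% to 99.4% of its antisense reads. These shares were 99.40% ± 0.033 against 99.45% ± 0.053 for rbd-1 (exact two-sided permutation p = 0.2) and 99.13% ± 0.296 against 99.36% ± 0.051 for daf-15 (exact permutation p = 0.3), with overlapping libraries in both cases. The table gives reads per transcript and not per position, so the place of these reads within each transcript was not analysed here.

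The remaining reads repeated a pattern around the main length. On rbd-1, reads 1 nt shorter with the same first base made up 0.0305% to 0.0556% of sense reads, reads 1 nt longer 0.226% to 0.330%, and reads of 55 nt, the longest in these libraries, 0.229% to 0.263%. Outside these 4 classes only 6, 8 and 5 sense reads were left in wild type and 3, 5 and 13 in the mutant. On daf-15 the shorter, longer and 55-nt reads starting with T made up 0.0134% to 0.0295%, 0.155% to 0.243% and 0.289% to 0.380%. daf-15 differed from rbd-1 in having more reads outside the 4 classes, namely 103, 325 and 80 in wild type and 56, 50 and 85 in the mutant. The longer reads outnumbered the shorter ones in every library on both genes.

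**Figure D2:**
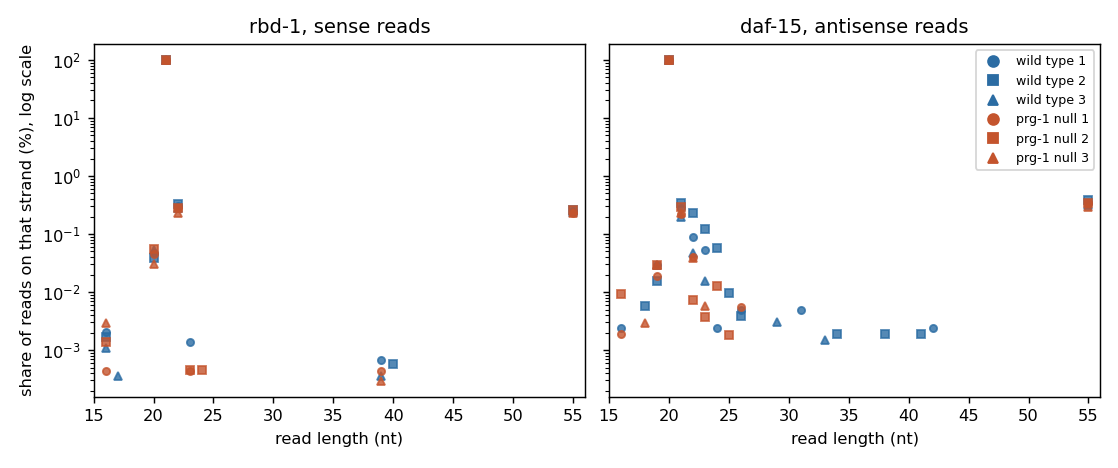
Share of each gene's reads on its richer strand (%, log scale) by read length (nt), for rbd-1 sense reads (left) and daf-15 antisense reads (right). Each point is 1 library, and lengths with no read are not drawn. The points at 21 nt for rbd-1 and 20 nt for daf-15 lie above 98%, and those at 55 nt lie between 0.229% and 0.383% in all 6 libraries.

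The genome table, in bins of 1000000 bases, held closely matching counts of both classes in the bins of the genes. It does not give read identities or places within a bin. The bin of chromosome IV from 12000001 to 13000000, which holds rbd-1, had 147077, 174265 and 279776 plus-strand reads of 21 nt starting with G in wild type and 229935, 218545 and 336209 in the mutant. The rbd-1 transcript held 99.7% to 99.95% as many, and this class alone was 93.8% to 98.4% of all reads of the bin. The bin from 9000001 to 10000000, which holds daf-15, had 40982, 51537 and 65297 minus-strand reads of 20 nt starting with T in wild type and 52917, 53903 and 68146 in the mutant. That is 1 to 18 reads per library more than the daf-15 transcript held. The next richest bin and strand for each class lay on chromosome X, with 16887 reads over the 6 libraries for 21 nt starting with G and 10174 for 20 nt starting with T.

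The pair shaped the length profile of the libraries. rbd-1 supplied 50.9% to 80.9% of all genome-aligned 21-nt reads, and daf-15 supplied 49.5% to 75.8% of all 20-nt reads. With all reads counted, 21 nt was the most common length in wild type libraries 1 and 3 and mutant library 1, and 22 nt in the other libraries. Without both genes, 22 nt was the most common length in all 6. The share of 21-nt reads was 17.4%, 18.95% and 35.5% in wild type and 29.7%, 23.6% and 25.8% in the mutant. Without both genes it was 6.41%, 10.6% and 10.5% in wild type and 12.6%, 12.6% and 12.9% in the mutant, where the genotypes no longer overlapped. That difference was not tested.

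**Figure D3:**
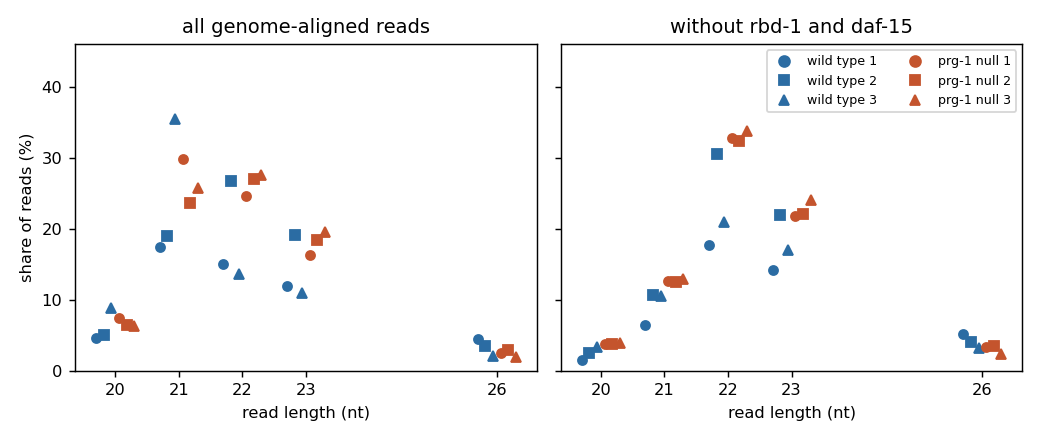
Share of reads (%) of 20, 21, 22, 23 and 26 nt among all genome-aligned reads (left) and after rbd-1 and daf-15 are taken out (right). Each point is 1 library. The 21-nt points span 17.4% to 35.5% on the left and 6.41% to 12.9% on the right.

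All reads of rbd-1 were entered on 1 of its 3 transcripts (T23F6.4a.1, 2783 bases) and all of daf-15 on 1 of 5 (C10C5.6a, 5727 bases). This does not tell which isoform they come from. Of 6044 genes with more than 1 transcript and at least 1 read, 4441 (73.5%) had every read on the transcript listed first. No annotated small or noncoding RNA gene overlapped either gene in the Ensembl annotation of WBcel235. The nearest were the piRNA genes 21ur-15145, 10217 bases from rbd-1, and 21ur-11845, 1852 bases from daf-15.

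Neighbouring genes carried far fewer reads. The collagen gene col-121, which overlaps the end of daf-15 by 107 bases on the other strand, had 1, 7 and 0 sense reads in wild type and 0 in every mutant library. T23F6.3, next to rbd-1 on the minus strand, had 191, 387 and 73 antisense reads in wild type and 165, 242 and 234 in the mutant. F56D5.2, near daf-15, had 53 to 194 antisense and 17 to 88 sense reads per library. The tables do not state how reads that fit several places were counted.

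Both genes ranked at the top of their strand in all 6 libraries. rbd-1 had 6.0, 2.83 and 10.4 times the sense reads of the next gene in wild type and 6.42, 3.91 and 4.49 times in the mutant. daf-15 had 7.98, 7.21 and 9.73 times the antisense reads of the next gene in wild type and 8.39, 5.95 and 5.44 times in the mutant. The next gene was not the same in each library, so these ratios also vary with that gene. For rbd-1 it was F31C3.10, ift-74 and che-1 in wild type and ift-74 in the mutant. For daf-15 it was dhs-26, Y59H11AR.6 and sri-48 in wild type and frm-1, frm-1 and C36A4.11 in the mutant. Per genome-aligned read, the mean levels of frm-1 and C36A4.11 were themselves higher in the mutant. The lead was smallest for rbd-1 in wild type library 2 and largest in wild type library 3.

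Several of the genes that follow also carried reads of nearly a single class. Among sense reads these were ift-74, an intraflagellar transport gene (268714 reads in all, 93.0% to 96.3% of 23 nt starting with T), che-1, a zinc-finger factor of a taste neuron (148187 reads, 97.6% to 98.1% of 21 nt starting with T), and the ciliary dynein gene che-3 (97.1% to 98.3% of 23 nt starting with A), whose exons hold the annotated piRNA 21ur-14242. In F31C3.10 and the flavin monooxygenase gene fmo-4 the most common class made up 2.31% to 5.58% and 13.9% to 57.0%. Among antisense reads, sri-48, a predicted chemoreceptor (35996 reads, 97.8% to 98.7% of 21 nt starting with T), and dhs-26, a short-chain dehydrogenase gene (93.5% to 95.6% of 21 nt starting with A), had such a profile. Y59H11AR.6, C36A4.11 and frm-1 were instead led by 22 nt starting with G, at 59.4% to 66.6%, 52.6% to 56.4% and 42.3% to 59.5%.

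The leading class took a larger share of the reads on rbd-1 and daf-15 than on the genes next in mean level, which is given as a description with no test. The share on rbd-1 exceeded that on ift-74 by 5.04 percentage points (3.06 to 6.45) and that on che-1 by 1.55 points (1.28 to 1.79). The share on daf-15 exceeded that on sri-48 by 0.995 points (0.137 to 1.46) and that on Y59H11AR.6 by 35.4 points (32.4 to 39.8). Each of these 4 differences had the same sign in 6 of 6 libraries. Reads of 55 nt made up 0.275% to 0.497% on ift-74, 0.225% to 0.345% on che-1 and 0.214% to 0.460% on sri-48.

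Few other genes were led by the same class at depth. No other gene had 21 nt starting with G as its most common sense class with at least 1000 such reads, among 609 genes with that leading class. Of 1359 genes with that class leading their antisense reads, 5 had at least 1000, namely F39E9.6 (5434), Y54G2A.19 (4509), ZK380.5 (3363), ZK1098.11 (2271) and the collagen gene col-71 (1674). For 20 nt starting with T the single other antisense gene was C40A11.3, with 1104 reads.

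The read numbers of both genes were correlated with each other over the libraries, more closely than with the rest of the library, a contrast that was not tested. Reads of rbd-1 and daf-15 gave r = 0.953 and rho = 0.943 over 6 libraries. Without the libraries with the fewest and the most rbd-1 reads, r was 0.883 over 4 libraries. The reads of other genome-aligned RNA gave r = 0.162 and rho = 0.0286 against rbd-1, and r = 0.16 and rho = 0.143 against daf-15. For the shares, which also have the same denominator, r was 0.971, and 0.393 without the third wild type and the first mutant library. No relation was computed within a genotype. The read numbers of both genes are the numerators of the shares that chose them, so all these relations are given with no test.

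The ratio of rbd-1 to daf-15 reads was 3.58, 3.35 and 4.28 in wild type and 4.34, 4.04 and 4.92 in the mutant. It was lowest in the first and second wild type libraries. The groups overlapped, as the third wild type library stood above the second mutant library, and the difference was not tested. Over the 6 libraries the reads of rbd-1 spanned a 2.28-fold range and those of daf-15 a 1.66-fold range, against 2.87-fold for all other genome-aligned reads.

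**Figure D4:**
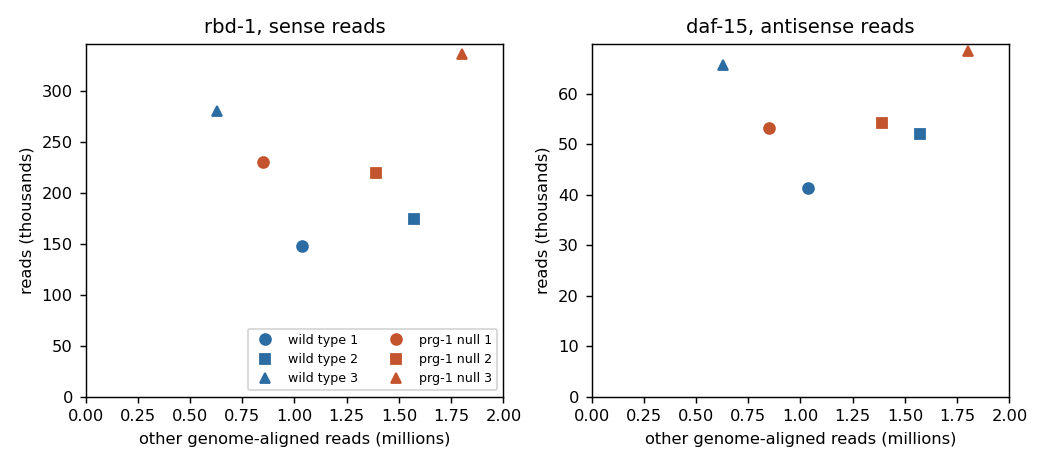
Reads of rbd-1 (sense, left) and daf-15 (antisense, right), in units of 1000 reads, against all other genome-aligned reads, in units of 1000000. Each point is 1 library. The wild type library with the fewest other reads, 627042, has more rbd-1 reads than every library but the third mutant library.

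The genes whose level over the 6 libraries was most like that of each member were found on the same strand, among genes with at least 50 reads there, by Pearson's r of log2(reads per 1000000 genome-aligned reads + 1). All levels share the genome-aligned total as denominator, and no test was made. For rbd-1, 11 of 1007 genes had r above 0.9. The 4 highest were pars-2, a prolyl-tRNA synthetase gene (0.984, on 64 reads), F54D5.12 (0.955), the intraflagellar transport gene osm-5 (0.955) and F42C5.9 (0.949). F54D5.12 and F42C5.9 had 797 and 335 sense reads, of which 99.0% and 97.6% were 21 nt starting with G, as on rbd-1. F54D5.12 held 0.0501% to 0.0704% as many reads as rbd-1 in each library.

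For daf-15, 12 of 5218 genes had r above 0.9. The highest was sri-48 (0.995), whose reads stood at 3816, 3041 and 6929 per 1000000 in wild type and 4986, 3620 and 3360 in the mutant. That is 10.3% to 11.3% of the daf-15 reads in each library, a 1.10-fold range. F40F9.3 (0.975) had 1548 reads, 90.9% of 21 nt starting with T, and C31E10.5 (0.964) had 1161, of which 69.2% were 20 nt starting with T, as on daf-15. Y77E11A.12 (0.945) had 169 reads, 95.9% of them 55 nt starting with T.

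Beneath the dominant class, daf-15 carried few antisense 22G reads (21 to 23 nt starting with G), which were fewer in the mutant. They came to 30, 82 and 5 in wild type and 10, 5 and 17 in the mutant. In these counts the first and second wild type libraries stood above all others and the third did not. Scaled to 22G reads as in the fit below, the third also stood above every mutant library, though on 5 reads. In edgeR's fit of 22G reads, 1363 of 2952 tested genes passed (46.2%), 981 of them lower in the mutant (33.2%), and daf-15, the only member tested, was among those lower. Its level was 198.7 ± 124.7 CPM (TMM-scaled counts per 1000000 22G reads) in wild type and 38.6 ± 19.9 CPM in the mutant, a log2 fold change of -2.43 ± 0.65 (SE, edgeR adjusted p = 0.00316). The call was kept in 12 of 13 alternatives and lost without the second wild type library (log2 fold change -2.005, edgeR adjusted p = 0.0611). The log2 fold change was -1.62 without the second mutant library. Per 1000000 genome-aligned reads the libraries overlapped, at 25.1 ± 20.2 against 6.51 ± 3.09 (exact two-sided permutation p = 0.3).

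Other minor antisense classes of daf-15 moved unevenly. Reads of 22 to 23 nt starting with A, a class picked after its values were seen, came to 32, 101 and 32 in wild type and 7, 0 and 11 in the mutant. They stood at 38.4 ± 15.7 against 3.72 ± 3.28 per 1000000 genome-aligned reads, a 10.3-fold difference with no overlap between the genotypes. Because the class was picked with these values known, this is a description with no test. Reads of 21 nt starting with T, 1 nt longer than the dominant class, stood at 75.1 ± 26.9 against 69.3 ± 18.04 per 1000000 (exact permutation p = 0.9). Only 2 reads of 26 nt starting with G were seen, both in the first wild type library.

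**Figure D5:**
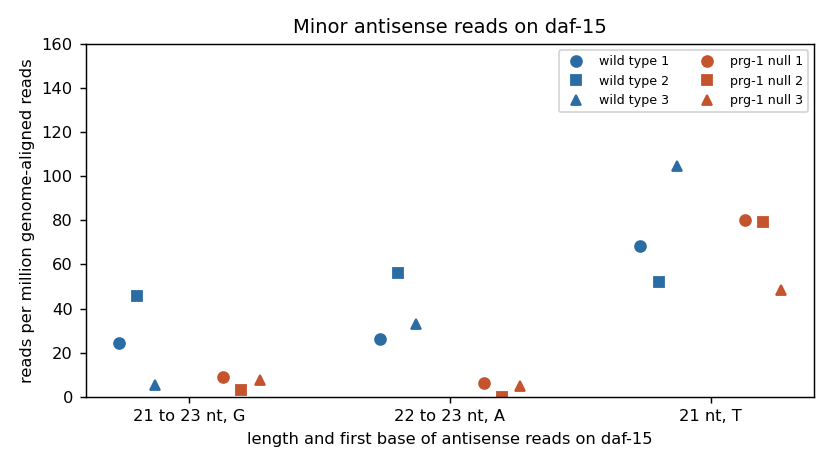
Antisense reads on daf-15 outside the dominant class, in reads per 1000000 genome-aligned reads, for 3 classes of length and first base. Each point is 1 library. The 22 to 23 nt class starting with A is the one of the 3 in which wild type (26.1 to 56.1) and the mutant (0 to 6.17) do not overlap. That class was picked after its values were seen.

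The opposite strands were nearly empty. rbd-1 had 18, 14 and 6 antisense reads in wild type and 5, 4 and 11 in the mutant, or 9.54 ± 4.52 against 3.93 ± 1.36 per 1000000 genome-aligned reads. The groups did not overlap per 1000000 (exact two-sided permutation p = 0.1, adjusted 0.6), and the gene did not pass in edgeR's fit (log2 fold change -1.53 ± 0.69, p = 0.0428, adjusted p = 0.11). Its antisense 22G reads, 5, 1 and 4 in wild type and 0, 2 and 0 in the mutant, were too few to test. daf-15 had 231, 2 and 3 sense reads in wild type and 11, 1 and 11 in the mutant. The first wild type library stood alone there, with 216 reads of 41 nt starting with G, and the genotypes overlapped, at 64.2 ± 107.5 against 5.10 ± 4.55 per 1000000 (exact permutation p = 0.8).

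Few of the genes that work beside rbd-1 in ribosome biogenesis could be tested for a change in 22G-RNA. Of 58 listed genes 42 were matched in the table and 13 had enough 22G reads to test. Of these 1 rose, 2 fell and 10 did not pass, where 12.9% of all tested genes rose and 33.2% fell. The median log2 fold change of the 13 was 0.10, against -0.13 for all genes tested. 22G reads on dao-5, a nucleolar phosphoprotein gene, came to 41, 136 and 16 in wild type and 1, 11 and 10 in the mutant, and fell by 3.80 on the log2 scale (335.9 ± 152.5 to 22.6 ± 15.5 CPM, edgeR adjusted p = 1.38e-05). The exosome subunit gene exos-3 fell from 172.8 ± 62.4 to 12.8 ± 8.49 CPM (edgeR adjusted p = 1.49e-04). rpoa-1, the largest subunit of RNA polymerase I, rose from 50.9 ± 14.1 to 162.2 ± 63.6 CPM (edgeR adjusted p = 0.031). This call on rpoa-1 did not hold under a replicate block (edgeR adjusted p = 0.0536), with every gene of at least 1 read tested (0.0986) or without wild type library 1, 2 or 3 (0.0887, 0.0627 and 0.0611).

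In the TOR and insulin pathway, where DAF-15 acts, 35 of 36 listed genes were in the table and 12 could be tested. None rose, 3 fell and 9 did not pass, where 12.9% of all tested genes rose and 33.2% fell. The median log2 fold change of the 12 was 0.05, against -0.13 for all genes tested. 22G reads on hlh-30, the worm's TFEB, came to 40, 80 and 9 in wild type and 0, 5 and 0 in the mutant (238.6 ± 117.2 to 5.31 ± 9.19 CPM). The log2 fold change was -5.28 (edgeR adjusted p = 1.67e-05). Without the second mutant library, which held all 5 mutant reads, no mutant read was left. The log2 fold change of -8.48 in that fit therefore does not measure the size of the fall. nprl-3, a subunit of the GATOR complex that restrains TOR complex 1, fell from 214.3 ± 110.2 to 18.03 ± 8.67 CPM (edgeR adjusted p = 8.14e-05). The kinase gene par-4 (LKB1) fell from 75.1 ± 6.98 to 15.9 ± 15.9 CPM, close to the threshold (edgeR adjusted p = 0.046), and its call was lost in 5 of 7 other settings, the replicate block among them (0.0623), and in 5 of 6 fits that left out a library (0.0865 to 0.253). Its log2 fold change was -2.24, and -1.29 without the third mutant library.

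The split of 22G calls depends on the scaling. Scaled to genome-aligned reads less those of rbd-1 and daf-15, which moves the median log2 fold change from -0.13 to 0.44, 621 genes were higher and 896 lower in the mutant, in place of 382 and 981. daf-15 remained among those lower under that scaling. Without the first mutant library 604 genes were higher.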

How the data were processed

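The values deposited by the authors are whole-number read counts with no normalization, called expected counts here because the rule for reads that match more than 1 place is not given in the sources read here. Per the file headers, trimmed reads were counted on each strand of transcripts and of 104 genome bins, with each count also listed by length and first base. Rounding therefore changed nothing, and every list summed to its count. The submitters' processing notes name cutadapt 3.7, FastQC 0.12.0 and the build WBcel235, and an aligner is not given in the sources used here.

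Each gene was represented by its transcript with the highest mean. Genotypes were compared over 3 against 3 libraries with edgeR 4.0.16 (R 4.3.3; quasi-likelihood test, filterByExpr, TMM, Benjamini-Hochberg 0.05) for sense, antisense and antisense 22G reads, and by exact two-sided permutation of reads per 1000000 genome-aligned reads. Intervals are exact binomial at 95%; no molecular identifiers are stated, so they reflect counting error only. Alternatives were DESeq2 1.42.0, other scalings and filters, a replicate block, summed transcripts, leaving out each library and, chosen after seeing the data, leaving both genes out of the fits. The members, gene lists and tests were chosen with earlier results of these data known. The text names both genes, prg-1, the 5 genes next on each strand, the 4 genes most alike, neighbours, genes led by the same class with at least 1000 reads and, per list, the 2 richest in 22G reads and up to 4 that passed; 1 gene so chosen is not reported here. Python 3.11.15, pandas 2.3.3, scipy 1.17.1 and matplotlib 3.10.9 were used.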

Additional observations from a re-analysis of the deposited data

How the results depend on the processing

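Directions of the dominant reads depend on single libraries. Leaving out each library in turn, the log2 ratio of prg-1 mutant to wild type per 1000000 genome-aligned reads ran from -0.33 to 0.58 for rbd-1 sense reads, with the sign turned without the third wild type (0.58) or the second mutant library (0.08). It ran from -0.46 to 0.23 for daf-15 antisense reads (turned without the third wild type library) and from -4.52 to 1.28 for daf-15 sense reads (turned without the first). In edgeR's fits it ran from -0.092 (without the second wild type library, a turned sign) to 0.997 (without the third, edgeR adjusted p = 0.0498) for rbd-1 sense reads, from -1.25 to 0.17 for daf-15 antisense reads and from -2.80 to -1.62 for daf-15 22G reads, the call being lost at -2.005 without the second wild type library. Scaled to genome-aligned reads less both genes, rbd-1 sense reads turned to -0.19 (edgeR adjusted p = 0.848). The causes were not tested. Of the edgeR values of both genes, 26 of 27 kept direction and side of the threshold under the other alternatives, and 17 of 21 with a library left out. Fits whose count filter dropped a gene are not in this tally, nor are daf-15 sense reads, which the main fit did not test. They passed as lower without the second wild type library (log2 fold change -3.95, edgeR adjusted p = 0.0489). In the other fits that tested them they did not pass. The exact-test values kept direction in 16 of 16, but cannot pass the threshold, and the values with no test in 32 of 36 with a library left out. Summing transcripts, counted among the 16, could not change an exact-test value, since all reads of each gene lay on a single transcript. Total counts of calls stayed within 1.5 times: at least 135 for sense, 1460 to 1727 for antisense and 1231 to 1769 for 22G reads with a library left out. Their split moved further, by up to 1.63 times, for 22G genes higher (382; 621 with that scaling, 604 without the first mutant library), sense genes lower (100; 62 without the first wild type library) and sense genes higher (88; 55 with library-size scaling). With a replicate block they were 155, 1512 and 1298, in place of 188, 1631 and 1363; beside the losses of rpoa-1 and par-4 named above, the block changed no call on a named gene. Same-numbered libraries did not deviate together (r from -0.282 to 0.0485). The labels do not state a pairing, and these correlations cannot exclude one. Library depth limits the minor classes, which rest on few reads: rbd-1 had 58 antisense reads in all.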
